A study of Mus musculus with 6 samples.

Results

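The heat shock protein and chaperone genes described here are 10 genes, taken by name from the 53801 genes counted in 6 mouse tumours. They are the small heat shock protein genes Hspb1, Hspb2 and Cryab, the HSP70 genes Hspa1a, Hspa1b, Hspa8 and Hspa5, the HSP90 genes Hsp90aa1 and Hsp90ab1, and the J protein gene Dnajb1. The tumours grew under the skin of wild type male C57BL/6 mice, 10 to 12 weeks old, from B16-F10 cells, a mouse melanoma line. In the SEVO group (n = 3) the cultured cells had been primed with 2% sevoflurane, a volatile anaesthetic, by flushing their chamber for 30 min and keeping them in it for a further 2 h. In the CTRL group (n = 3) the cells were not primed. No animal was anaesthetised at implantation, so the anaesthetic reached the cells in culture and not the mouse, and RNA was taken from pieces of the grown tumour weeks later. Such pieces also hold host cells, and in bulk RNA fewer cells of a type and less RNA per cell cannot be told apart. No label ties the tumours to animals, so the p-values here measure the spread between these samples.

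Heat shock proteins are molecular chaperones that bind unfolded or damaged proteins and help them fold, hold them in a soluble state or pass them on for degradation. Some are made in nearly all cells at all times (Hspa8 and Hsp90ab1 in the cytosol, Hspa5 in the endoplasmic reticulum), while others (Hspa1a, Hspa1b, Dnajb1, Hspb1 and in part Hsp90aa1) rise sharply when the transcription factor HSF1 is released under heat or other stress and binds heat shock elements in their promoters. Small heat shock proteins hold unfolding proteins without using ATP, and Hspb2 and Cryab (alpha B-crystallin), both abundant in muscle, are divergent neighbours.

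The genes took 723431 to 1348676 counted reads in each tumour, 2.06% to 4.61% of its uniquely aligned reads, and the 10 chaperone genes together held 231 to 715 of them. The strand setting of the counting is not given in the sources used here. In 18 of 39 pairs of a chaperone or stress gene with a gene on the other strand, the opposite gene had more reads. Hspb2 with Cryab and Hspd1 with Hspe1 were counted from both sides. The reads are those of whole genes and not of the shared bases. Whether the reads of a gene came from its own strand or from the other one was not tested. Every level below carries this limit and may not be the level of the gene's own mRNA. Levels are given as reads or as CPM (reads scaled to a library size corrected by the TMM method). The predicted genes Gm10800 and Gm10801 took 49.0% of the counted reads in CTRL 1 and 35.5% in CTRL 3, against 1.31% in CTRL 2 and 7.97% to 18.7% in the SEVO tumours. The sample labels name the cell type as Monocytes and the source as tumour. All 10 defining melanocyte markers had reads in every tumour, with a summed level of 669 to 1934 CPM. Of 12 defining monocyte and macrophage markers, 3 had reads in every tumour, and the summed level of the 12 was 204 to 328 CPM. No defining marker of either list was at 0 in all tumours. Among the markers of other cell types, the summed level of 15 skeletal muscle genes was 332 to 652 CPM in CTRL and 367 to 425 CPM in SEVO tumours, and that of 6 fibroblast genes was 31.4 to 149 CPM and 15.02 to 61.1 CPM. Endothelial genes reached 13.8 to 195 CPM in CTRL and 15.02 to 68.7 CPM in SEVO tumours, keratinocyte genes 1 to 45 reads and 5 to 11 reads, and genes of T and NK cells 8.78 to 86.2 CPM and 23.6 to 33.8 CPM. Erythroid genes reached 20.7 to 128 CPM in CTRL and 31.0 to 108 CPM in SEVO tumours. The adipocyte list was the one list without overlap, at 22.6 to 71.6 CPM in CTRL and 12.6 to 21.8 CPM in SEVO tumours.

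The position of Hspb2 and Cryab comes first, since it sets what their counts can hold. On chromosome 9 of GRCm38, Hspb2 (ENSMUSG00000038086.4) spans chr9:50751078-50752354 on the minus strand and Cryab (ENSMUSG00000032060.10) spans chr9:50751325-50756636 on the plus strand. The first transcripts of the pair, Hspb2-201 and Cryab-201, start 613 bases apart and run away from each other, and their exons share no base. Of the 6 annotated Cryab transcripts, 2 begin further upstream, inside Hspb2: Cryab-202 in the Hspb2 intron and Cryab-206 in an exon. The first exon of Cryab-206 lies within the Hspb2 coding sequence on the other strand and shares 252 bases with it, which was 30.2% of the Hspb2 exon bases and 17% of the Cryab exon bases. None of the shared bases is coding in Cryab. With the strand setting unknown, it cannot be said whether reads in this stretch were counted to Hspb2, to Cryab or, as ambiguous, to neither. The following 30 bases of it, from chr9:50751435-50751464 on the minus strand (GENCODE M21), are Hspb2 coding sequence and lie opposite Cryab-206.
Hspb2: gtcctgcctgcagatgtggacccctggcgg

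**Figure D1:**
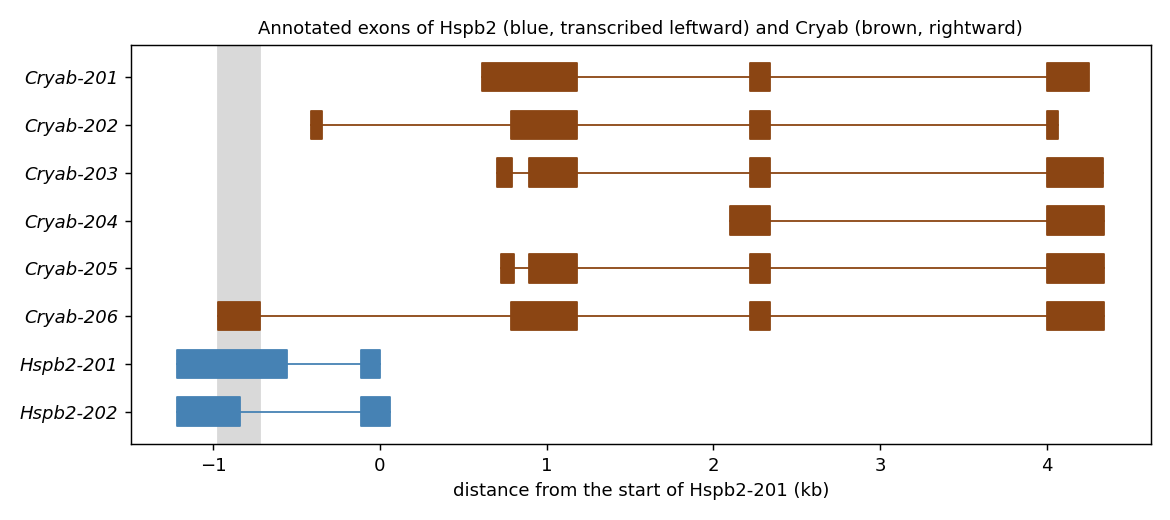
Annotated exons (boxes) of the 2 Hspb2 and 6 Cryab transcripts, plotted as distance in kb from the start of Hspb2-201, with the 252 bases that both genes share shaded. Hspb2 runs leftward and Cryab rightward, and the shaded stretch is covered by a Cryab exon in Cryab-206 alone.

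Sequence bears on the other members as well. Hspa1a and Hspa1b are near-identical neighbours on chromosome 17, and the 250 bases before their starts in the RefSeq promoter table (GRCm38.p6) differed at 3 positions, C44T, T47C and T249G, with the Hspa1a base first and positions counted from 1 at the 5′ end. Both hold the 2-unit heat shock element GAANNTTC once, beginning 104 bases before the start. Hspb1 holds this element 2 times, 117 and 97 bases before its start. It was not found in Hspa5 or in either promoter entry of Dnajb1. The element was searched on both strands and was found in 6.69% of 32851 RefSeq promoters of the same length, so it is common. The longer 3-unit form GAANNTTCNNGAA was found in 0.466% of these promoters and in none of the 5 members with a table entry (Hspb1, Hspa1a, Hspa1b, Hspa5 and Dnajb1). The form TTCNNGAA, which overlaps with the 3-unit form, was in 7.17% of promoters and in none of these members. The ER stress response element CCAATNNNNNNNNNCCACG, present in 0.113% of promoters, was found in Hspa5, beginning 65 bases before its RefSeq start. That start lies downstream of the outermost GENCODE start of Hspa5, so the printed stretch falls inside the gene as GENCODE draws it. The sequences are shown because they carry these elements (in capitals) and because the Hspa1a and Hspa1b lines show how little tells the genes apart. They are from chr17:34972157-34972406 and chr17:34959239-34959488 on the minus strand, and from chr5:135887669-135887918 and chr2:34772019-34772048 on the plus strand.
Hspa1a: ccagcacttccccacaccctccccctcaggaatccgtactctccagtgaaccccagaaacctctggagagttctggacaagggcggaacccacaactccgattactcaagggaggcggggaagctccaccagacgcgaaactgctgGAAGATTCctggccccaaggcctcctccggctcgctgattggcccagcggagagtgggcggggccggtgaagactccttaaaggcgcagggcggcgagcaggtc
Hspa1b: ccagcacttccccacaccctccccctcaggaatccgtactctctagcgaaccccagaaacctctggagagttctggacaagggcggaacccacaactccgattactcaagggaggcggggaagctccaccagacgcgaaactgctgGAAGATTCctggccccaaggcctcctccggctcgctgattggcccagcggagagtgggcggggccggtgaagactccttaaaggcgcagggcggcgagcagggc
Hspb1: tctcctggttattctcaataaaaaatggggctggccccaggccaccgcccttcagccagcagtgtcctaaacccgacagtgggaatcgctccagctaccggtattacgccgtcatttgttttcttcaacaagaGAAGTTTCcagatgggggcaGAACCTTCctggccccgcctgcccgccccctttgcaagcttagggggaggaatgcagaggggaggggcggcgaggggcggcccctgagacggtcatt
Hspa5: acttcaCCAATCGGAGGCCTCCACGacggg

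Hspa1a (chr17:34969190-34972156) and Hspa1b (chr17:34956436-34959238) are single-exon genes on the minus strand, and Hsp90ab1 lies on the same chromosome and strand at chr17:45567775-45573271. Hspa8 is at chr9:40800984-40810087 on the plus strand, Hspa5 at chr2:34771970-34777547 (plus), Hsp90aa1 at chr12:110690605-110702728 (minus), Dnajb1 at chr8:83608193-83612653 (plus) and Hspb1 at chr5:135887919-135889563 (plus), all on GRCm38. Within their transcripts, 66.3% of the 50-base windows of Hspa1a were also found in a transcript of another gene, mostly Hspa1b, and 62.3% of those of Hspa1b were found in Hspa1a. Since the authors kept uniquely aligned reads, the counts of these genes are uncertain. The share was 50.1% for Hspb1 (mostly Hsp25-ps1), 47.5% for Hsp90aa1 (mostly Gm12346) and 39.4% for Hspa8 (mostly Gm15459). It was 3.44% for Hsp90ab1, 0.412% for Dnajb1 and 0% for Hspa5. For Hspb2 it was 24.4%, all of it the stretch shared with Cryab.

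At an adjusted p under 0.05 (edgeR quasi-likelihood test, Benjamini-Hochberg over 7561 genes), none of the chaperone genes differed between SEVO and CTRL tumours. Of the 10, 6 passed the filter on low counts (Hspb2, Cryab, Hspa5, Hspa8, Hsp90aa1 and Hsp90ab1) and 0 of these were called, as were 0% of all genes tested. The other 4 (Hspb1, Hspa1a, Hspa1b and Dnajb1) were read from a fit over all 42423 genes with at least 1 read, with 0 called. At an unadjusted p under 0.05, edgeR had 330 of 7561 genes (4.36%) and DESeq2, run without the filter, 265 of 42423. Of the members, 1 was among those of edgeR, Hspb2, which was also among those of DESeq2. At the looser thresholds used in the study (an unadjusted p under 0.02 and a fold change of at least 1.5), 79 genes (1.04%) passed and 0 members. Without SEVO 3, 479 of 8383 genes tested passed, Hspa5 and Hsp90aa1 among them. Hspb2 passed under 5 other settings of scaling, filter or test, which reuse the same 6 tumours and are not independent support. For Hspb2, the setting without the filter and that with at least 10 reads in every tumour gave the same fit. Groups did not overlap for 1 member, Hspb2, with all SEVO tumours above all CTRL tumours, as for 4.17% of the tested genes, and the opposite order (4.39% of genes) was seen for 0 members.

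Hspb2, a small heat shock protein of heart and skeletal muscle, was counted with 8, 4 and 5 reads in CTRL 1 to 3 and with 10, 22 and 17 reads in SEVO 1 to 3. This was 9.71, 5.02 and 5.74 CPM in CTRL tumours and 11.5, 23.6 and 18.5 CPM in SEVO tumours. Every SEVO tumour was above every CTRL tumour, although SEVO 1 and CTRL 1 lay 2 reads apart. The mean was 6.82 ± 2.53 CPM for CTRL and 17.9 ± 6.08 CPM for SEVO (SD, n = 3 each). The log2 fold change was 1.37 ± 0.62 (SE), with an unadjusted p of 0.045 and an adjusted p of 0.741 in edgeR. The exact two-sided permutation test gave p = 0.1, the smallest that 3 tumours against 3 allow. Hspb2 reached the level of the filter, 11.2 CPM before TMM scaling, in the 3 SEVO tumours and in 0 CTRL tumours, so it entered the fit through the group in which it was higher. It is also on the list of differing genes that the study chose on these same samples, so its direction here is not independent evidence. Over 15 alternatives of the analysis the log2 fold change stayed between 1.22 and 1.95, with adjusted p from 0.184 to 1.0.

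Cryab, a small heat shock protein of lens and muscle, had 14, 40 and 29 reads in CTRL tumours and 39, 33 and 48 reads in SEVO tumours. At 17, 50.2 and 33.3 CPM in CTRL and 44.9, 35.4 and 52.3 CPM in SEVO tumours, the groups overlapped, and CTRL 1 was the lowest tumour. In log2 terms the difference was 0.40 ± 0.42 (SE, adjusted p = 0.776 in edgeR). CTRL 1 set much of it, since it was 0.09 without that tumour and 0.93 without CTRL 2 (adjusted p = 0.173).

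The pair did not keep a fixed ratio. Hspb2 reads per Cryab read were 0.571, 0.10 and 0.172 in CTRL 1 to 3 and 0.256, 0.667 and 0.354 in SEVO 1 to 3, or 0.281 ± 0.254 and 0.426 ± 0.214 (SD, n = 3). CTRL 1, lowest of all in Cryab, was the highest CTRL tumour in Hspb2, and SEVO 2, the lowest SEVO tumour in Cryab, was the highest in Hspb2. Pearson's r between the pair in log2 CPM was 0.079 over the 6 tumours. Skeletal muscle, where both genes are abundant, was measured by the 15 markers given above. All 15 had reads, but 5 of them had reads in every tumour. The range of their summed level in SEVO tumours lay inside that of CTRL tumours, with the highest value, 652 CPM, in CTRL 1. The part of host muscle in the Hspb2 and Cryab counts was not tested.

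Over the same 6 tumours, the tested genes whose log2 CPM was most like that of Hspb2 were 2210411M09Rik (r = 0.980), Gm37648 (r = 0.977) and Naa20 (r = 0.969). Naa20, a subunit of an N-terminal acetyltransferase, had 36, 31 and 36 reads in CTRL and 46, 63 and 52 reads in SEVO tumours. For Cryab they were 4930404N11Rik (r = 0.996), Rell2 (r = 0.995) and Gm13708 (r = 0.990). These are the 3 highest of 7561 values for each gene, taken over 6 points that share 2 groups and 6 library sizes, and are given as a description. No chaperone gene was among them.

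Hspb1 (HSP25 in mice), the inducible small heat shock protein that guards actin filaments, had few reads. It had 1, 1 and 3 reads in CTRL and 1, 2 and 1 reads in SEVO tumours. Hspa1a, an inducible cytosolic HSP70, had 3, 0 and 2 reads in CTRL and 0, 2 and 2 reads in SEVO tumours. With no tumour above 3 reads, the size taken here as the floor (3.22 to 3.76 CPM), no fold change is given for these 2 genes.

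The near-identical Hspa1b had 12, 0 and 2 reads in CTRL and 5, 2 and 5 reads in SEVO tumours. CTRL 1 was the highest at 14.6 CPM and CTRL 2 was at 0, so the SEVO tumours, at 2.15 to 5.75 CPM, lay within the CTRL range. CTRL tumours averaged 5.62 ± 7.83 CPM and SEVO tumours 4.45 ± 2.0 CPM (SD, n = 3 each). The log2 fold change, 0.43 ± 0.97 (SE, adjusted p = 0.914 in edgeR), has the opposite sign to the difference of these means, and came from the fit over all genes, which has its own scaling and a median gene at -0.38. Without CTRL 1 it was 1.98, so 1 tumour decided its size. The genes next to or opposite this pair were also counted: Hspa1l, a testis HSP70 whose start lies 547 bases from that of Hspa1a on the other strand, had 16, 31 and 30 reads in CTRL and 47, 33 and 29 reads in SEVO tumours, more than Hspa1a in every tumour. Gm20481, which has 564 exon bases opposite Hspa1a, had 15, 3 and 1 reads in CTRL and 6, 3 and 14 reads in SEVO tumours.

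Dnajb1 (HSP40), the inducible J protein that stimulates HSP70 to hydrolyse ATP, had 19, 5 and 6 reads in CTRL and 3, 5 and 21 reads in SEVO tumours. CTRL 1 and SEVO 3 stood at 23.1 and 22.9 CPM and the other 4 tumours at 3.45 to 6.89 CPM, so each group held 1 high tumour. CTRL tumours averaged 12.1 ± 9.53 CPM and SEVO tumours 10.6 ± 10.7 CPM (SD, n = 3 each). The log2 fold change from the fit over all genes, 0.38 ± 0.67 (SE, adjusted p = 0.882 in edgeR), has the opposite sign to the difference of these means, so no direction is given, and it was -0.67 without SEVO 3, -0.34 without CTRL 2 and -0.40 without CTRL 3. Tecr, an enzyme of fatty acid elongation whose start lies 222 bases from that of Dnajb1 on the other strand, had 9 to 12 reads in CTRL and 9 to 16 reads in SEVO tumours (log2 fold change 0.13 ± 0.57, SE).

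Hspa8, Hspa5, Hsp90ab1 and the partly inducible Hsp90aa1 were better counted than these inducible genes. In all of them SEVO 1 and SEVO 2 were the lowest tumours. Dnajb1 was lowest in the same tumours (3.45 and 5.36 CPM), so this order was not particular to constitutive chaperones. Hspa8 (HSC70), the constitutive cytosolic HSP70, had 24, 28 and 13 reads in CTRL and 7, 8 and 49 reads in SEVO tumours, or 29.1, 35.1 and 14.9 CPM and 8.05, 8.58 and 53.4 CPM. SEVO 1 and 2 were the lowest tumours and SEVO 3 the highest. The log2 fold change was -0.17 ± 0.67 (SE, adjusted p = 0.922 in edgeR), -1.60 without SEVO 3 (adjusted p = 0.354) and 0.22 to 0.28 without CTRL 2, SEVO 1 or SEVO 2.

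Hspa5 (BiP), the HSP70 of the endoplasmic reticulum and a regulator of the unfolded protein response, had 103, 62 and 88 reads in CTRL and 36, 38 and 122 reads in SEVO tumours. At 125, 77.8 and 101 CPM in CTRL and 41.4, 40.8 and 133 CPM in SEVO tumours, SEVO 1 and 2 again lay below every CTRL tumour and SEVO 3 above them. The means were 101 ± 23.6 CPM and 71.7 ± 53.1 CPM (SD, n = 3), with a log2 fold change of -0.50 ± 0.45 (SE, adjusted p = 0.763 in edgeR). Without SEVO 3 the log2 fold change was -1.25 (unadjusted p = 0.006, adjusted p = 0.329), and without SEVO 1 or SEVO 2 it was -0.16 or -0.14.

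Hsp90aa1, the stress-responsive cytosolic HSP90, had 161, 90 and 117 reads in CTRL and 31, 60 and 159 reads in SEVO tumours. Its levels of 195, 113 and 134 CPM in CTRL and 35.6, 64.4 and 173 CPM in SEVO tumours put SEVO 1 and 2 at the bottom, while SEVO 3 lay inside the CTRL range. The log2 fold change was -0.69 ± 0.49 (SE, adjusted p = 0.741 in edgeR), -1.51 without SEVO 3 (unadjusted p = 0.004, adjusted p = 0.329), -0.24 without SEVO 1 and -0.42 without SEVO 2.

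Hsp90ab1, the constitutive cytosolic HSP90 and the best counted member, had 152, 226 and 199 reads in CTRL and 99, 133 and 291 reads in SEVO tumours. This was 185, 283 and 228 CPM in CTRL and 114, 143 and 317 CPM in SEVO tumours, with SEVO 1 and 2 lowest and SEVO 3 highest. As a log2 fold change this was -0.28 ± 0.42 (SE, adjusted p = 0.818 in edgeR). It was -0.81 without SEVO 3 and 0.02 without SEVO 1, -0.05 without SEVO 2 and 0.01 without CTRL 2. Hsp90aa1 reads per Hsp90ab1 read were 1.06, 0.398 and 0.588 in CTRL and 0.313, 0.451 and 0.546 in SEVO tumours, highest in CTRL 1. These are ratios of reads and not of levels, and set per kb of exon the ratio over all tumours was 0.429.

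**Figure D2:**
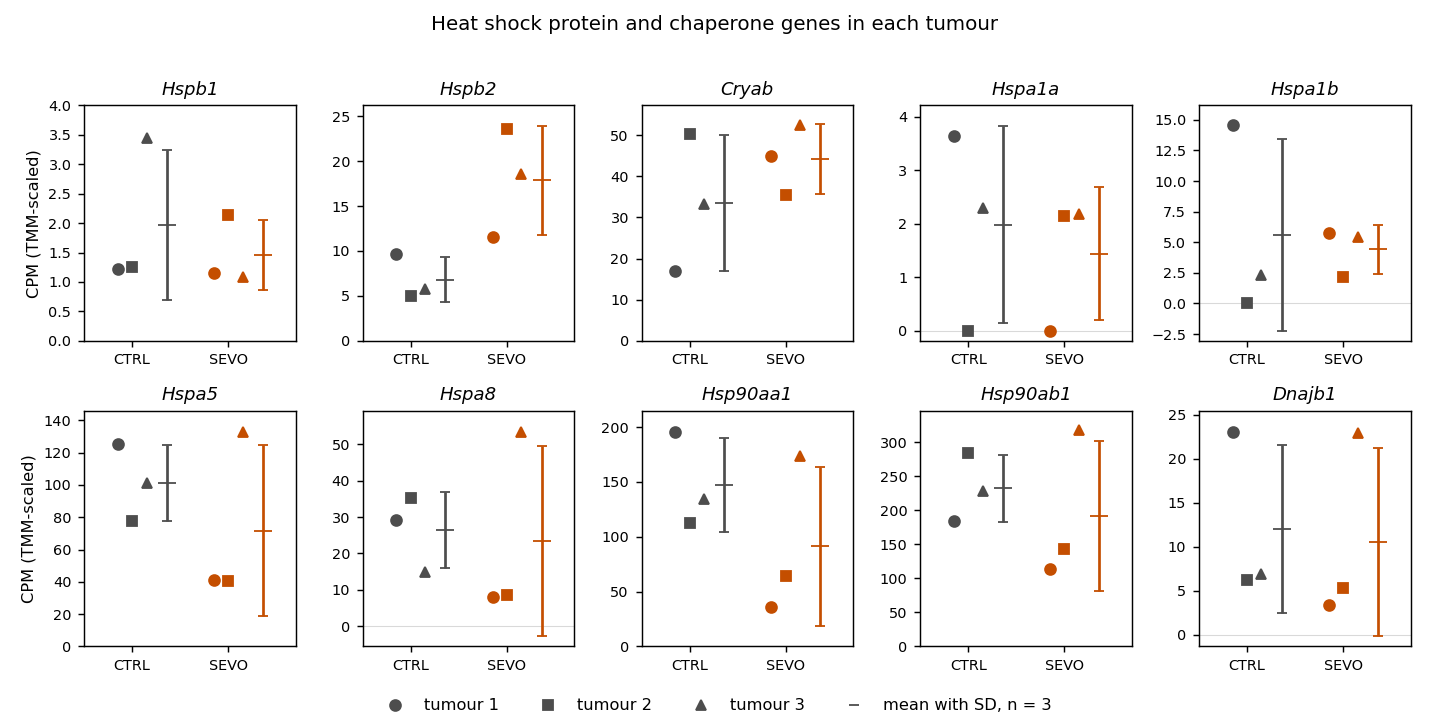
Level of each chaperone gene in each tumour (CPM after TMM scaling, own axis per gene), with CTRL in grey, SEVO in orange, a symbol for each tumour number (which does not pair tumours) and the mean with SD of 3 tumours beside the points. Hspb2 is the one gene without overlap, and for Hspa5, Hspa8, Hsp90aa1 and Hsp90ab1 the points of SEVO 1 and SEVO 2 lie at the bottom with SEVO 3 far above them.

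The spread within the SEVO group was thus wider than the difference between the groups for these 4 genes. Their summed level was 534, 509 and 479 CPM in CTRL 1 to 3 and 199, 256 and 677 CPM in SEVO 1 to 3, or 507 ± 27.9 CPM and 378 ± 261 CPM (SD, n = 3). Of the 6 members tested, 4 were highest in SEVO 3 (Cryab, Hspa5, Hspa8 and Hsp90ab1), as were 8.28% of all genes tested, and 4 were lowest in SEVO 1 or SEVO 2, as were 33.9% of genes. Both held for 3 of the 6 members and for 3.76% of genes. The order was noticed in these data and its counts are a description. The share of all genes with SEVO 1 and SEVO 2 both below every other tumour was not counted. Hspb2 and Cryab, the other members tested, were lowest in CTRL tumours and are not in the sum. The melanocyte markers followed the same order of tumours: their summed level was 1533, 1484 and 1470 CPM in CTRL 1 to 3 and 669, 815 and 1934 CPM in SEVO 1 to 3. Per CPM of these markers, the 4 chaperone genes were at 0.348, 0.343 and 0.326 in CTRL and 0.297, 0.314 and 0.350 in SEVO tumours, or 0.339 ± 0.012 and 0.321 ± 0.027 (SD, n = 3). A 3.40-fold range of the chaperone sum over the tumours became a 1.18-fold range once set against the markers. This holds for the sum and need not hold for each gene. Alone, Hsp90ab1 ranged 2.79-fold, Hspa5 3.26-fold, Hsp90aa1 5.48-fold and Hspa8 6.64-fold, and Hsp90aa1 was highest in CTRL 1. Single genes were not set against the markers. Monocyte and macrophage markers took another order, 204, 281 and 244 CPM in CTRL and 328, 280 and 232 CPM in SEVO tumours. The parts of cell composition and of the strand of the counted reads in the chaperone and marker levels were not tested.

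**Figure D3:**
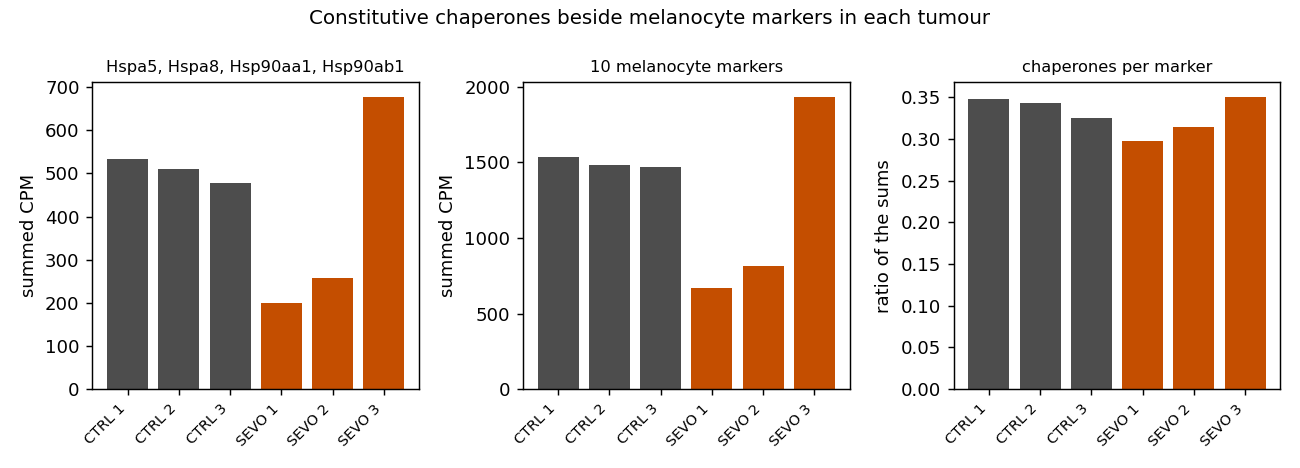
Summed level in CPM of Hspa5, Hspa8, Hsp90aa1 and Hsp90ab1 (left), of the 10 melanocyte markers (middle) and the ratio of the sums (right), with 1 bar for each tumour. Both sums are low in SEVO 1 and SEVO 2 and highest in SEVO 3, while the ratio stays between 0.297 and 0.350.

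**Figure D4:**
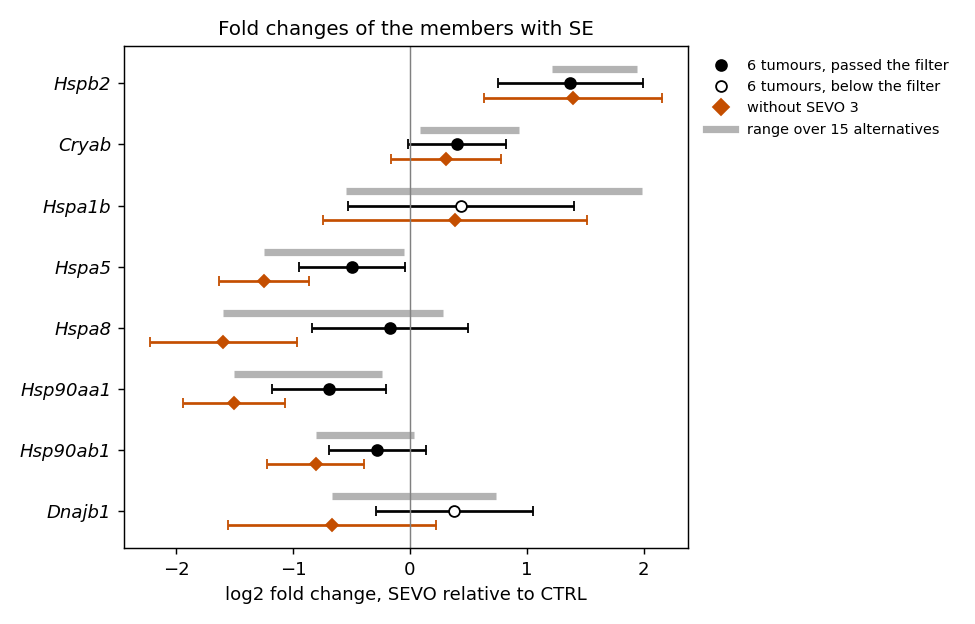
Log2 fold change of 8 members (points with SE) with all 6 tumours and without SEVO 3, and the range over 15 alternatives (grey bars). Hspb2 lies right of 0 in all of them, and leaving out SEVO 3 moves Hspa5, Hspa8, Hsp90aa1, Hsp90ab1 and Dnajb1 to the left.

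Levels can be compared between genes only per length. Per kb of exon, the mean CPM over all 6 tumours was 70.6 ± 26.5 for Hsp90ab1, 30.4 ± 15.7 for Hsp90aa1, 26.3 ± 8.90 for Cryab, 20.5 ± 9.50 for Hspa5 and 14.8 ± 8.81 for Hspb2 (SD, n = 6). Hspa8 followed at 5.78 ± 4.14, Dnajb1 at 3.53 ± 2.84, Hspa1b at 1.80 ± 1.84, Hspb1 at 1.66 ± 0.90 and Hspa1a at 0.58 ± 0.49 CPM per kb. The steps from Hsp90ab1 to Hsp90aa1, from Hspb2 to Hspa8 and from Hspb1 to Hspa1a were larger than the SD of either neighbour, and the other 6 steps were not. Even in these steps the tumours overlapped, with the lowest Hsp90ab1 value at 38.0 and the highest Hsp90aa1 value at 49.7 CPM per kb. Hspb1 and Hspa1a had 9 reads each in total, none above the floor in any tumour, over 1.03 and 2.97 kb of exon. These levels are not corrected for windows shared with other genes, which made up 47.5% of those of Hsp90aa1 against 3.44% of those of Hsp90ab1, and 39.4% to 66.3% of those of Hspa8, Hspb1, Hspa1b and Hspa1a. By group, Hspb2 stood at 8.18 ± 3.03 CPM per kb in CTRL and 21.4 ± 7.29 in SEVO tumours, against 22.6 ± 11.2 and 29.9 ± 5.74 for Cryab (SD, n = 3).

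Over the 6 members that passed the filter, the median log2 fold change was -0.22, beside -0.02 for all genes tested. It was 0.12 over all 10, with 4 of them on the scale of the fit over all genes. Members passed the filter through different tumours (Hspb2 through SEVO alone), so these medians are descriptions.

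The 9 wider lists of chaperone and stress genes held 92 further genes, of which 56 passed the filter. At an adjusted p under 0.05 or at the looser thresholds 0 of them passed, 15 had a log2 fold change above 0 and 41 below, and their median was -0.42. Their groups did not overlap for Ddit3 (CHOP, a transcription factor of the unfolded protein response), with 65, 96 and 80 reads in CTRL and 127, 150 and 115 reads in SEVO tumours (log2 fold change 0.57, adjusted p = 0.741 in edgeR), and for the J protein gene Dnaja2, with 26, 13 and 11 reads in CTRL and 3, 4 and 11 reads in SEVO tumours (log2 fold change -1.59, adjusted p = 0.741 in edgeR). Dnaja2 was equal in reads in CTRL 3 and SEVO 3 and was lower in SEVO 3 in CPM alone. Ddit3 shares 68 exon bases with Mars on the other strand, which had 57 to 171 reads per tumour. Thus 1 of the 56 genes separated the groups in each direction. Among all genes tested, 4.17% did so with SEVO higher and 4.39% with SEVO lower. Such separation was therefore no more frequent in these lists than among all genes. Ddit3 and Dnaja2 were picked after their values were seen.

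Among the small heat shock proteins, 4 of 10 were tested, 3 with a log2 fold change above 0 and a median of 0.30, and the best counted of the others, Hspb6, was at -0.32 ± 0.46 and Hspb9 at 0.19 ± 0.68 (SE). The HSP70 and HSP110 genes had 9 of 15 tested, 7 of them below 0, and a median of -0.46, which ran from -0.99 (without SEVO 3) to -0.023 (without SEVO 1) when each tumour was left out in turn. Hspa4, an HSP110 that exchanges the nucleotide of HSP70, was at -0.57 ± 0.37 and the mitochondrial Hspa9 at -0.46 ± 0.47 (SE). All 3 tested HSP90 genes lay below 0 (median -0.55, from -1.09 without SEVO 3 to -0.20 without SEVO 1), including Hsp90b1, the HSP90 of the endoplasmic reticulum, at -0.55 ± 0.41 (SE).

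Hsp90b1 shares 415 exon bases with 1810014B01Rik on the other strand, and had 60 to 195 reads per tumour against 2328 to 6031 of that gene. Trap1, its mitochondrial relative, had 2 to 11 reads and did not pass the filter. Of the J proteins 13 of 20 were tested, with a median of -0.06, and of these Dnaja1 was at 0.27 ± 0.35 and Dnajc1 at 0.47 ± 0.37 (SE).

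The co-chaperones of HSP70 and HSP90 had 10 of 20 tested and a median of -0.49, with Stub1 (CHIP, a ubiquitin ligase for chaperone clients) at 0.37 ± 0.36 and Bag4 at 0.26 ± 0.36 (SE). All 9 tested genes of the 10 chaperonins, the barrel-shaped complexes that fold actin, tubulin or mitochondrial proteins, lay below 0, with a median of -0.41, among them Tcp1 at -0.28 ± 0.37 and Cct8 at -0.13 ± 0.35 (SE). Both tested heat shock factors did too, Hsf1 at -0.42 ± 0.41 and Hsf2 at -0.63 ± 0.49 (SE). None of these values passed a threshold.

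Of the 102 genes of the wider lists, members included, 33 have exons opposite another counted gene, and in 18 of 39 such pairs the opposite gene had more reads. A pair within the lists counts from both sides here. Among the genes named above, Stub1 shares 1084 exon bases with Jmjd8 (585 to 1736 reads per tumour), Tcp1 shares 571 with Acat3 (589 to 1739 reads), Bag4 shares 1042 with Gm17484 (176 to 423 reads) and Cct8 shares 192 with Usp16 (84 to 167 reads), all with fewer reads in total than the gene opposite.

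The endoplasmic reticulum list had 17 of 22 tested and a median of -0.50, with 13 below 0, and Manf, a secreted factor of the unfolded protein response, at 0.31 ± 0.37 (SE). Manf too lies opposite a better counted gene, 4930524O07Rik (117 to 282 reads per tumour). Of 19 HSF1 target genes, 10 were tested, with a median of -0.22 and 7 below 0, and Fkbp4, a co-chaperone of steroid receptors, was at -0.72 ± 0.46 (SE). The summed level of the HSF1 targets was 739 to 872 CPM in CTRL tumours and 452, 550 and 1100 CPM in SEVO 1 to 3, with SEVO 1 and 2 lowest and SEVO 3 highest. This list holds 8 of the 10 members, so its order in part repeats theirs. Without SEVO 3 the median of this list was -1.13, that of the chaperonins -1.19 and that of the endoplasmic reticulum list -1.01.

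**Figure D5:**
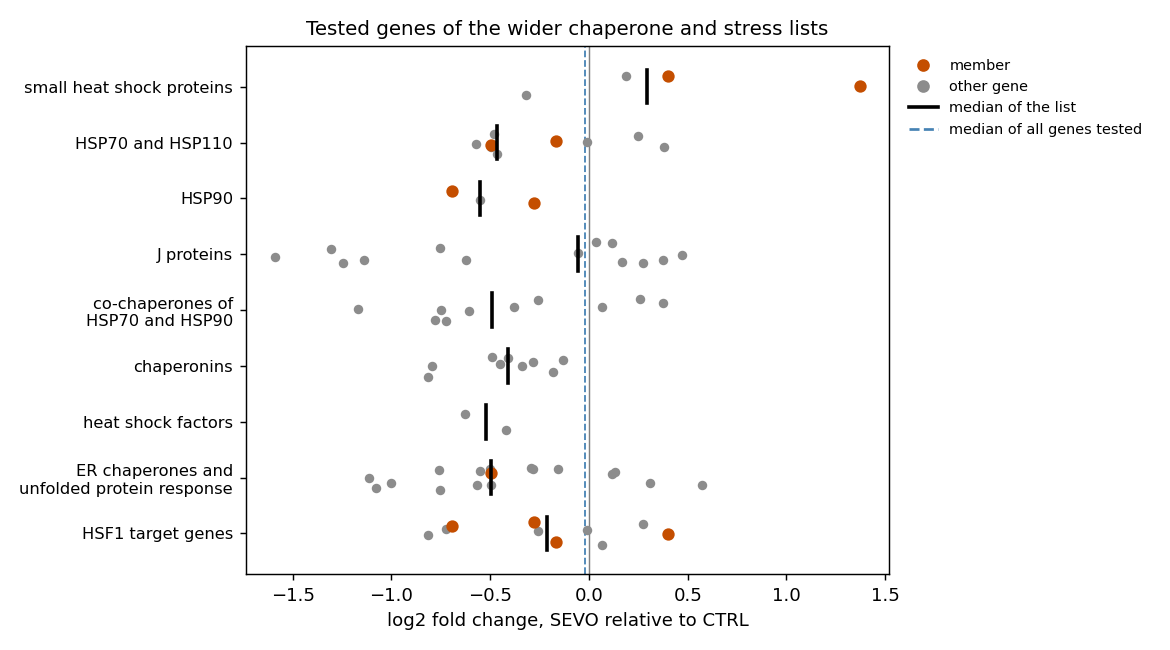
Log2 fold change of the tested genes of 9 chaperone and stress lists (members in orange, other genes in grey, list medians as black bars, median of all genes as a dashed line). Hspb2 is the rightmost point at 1.37, and the medians of 8 lists lie left of that of all genes.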

How the data were processed

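RNA-seq reads of 3 CTRL and 3 SEVO tumours were trimmed with Trimmomatic 0.36, aligned to GRCm38.p6 with STAR 2.6.0c and counted per gene with HTSeq 0.9.1, per the submitters' processing notes, on GENCODE release M17. Ribosomal RNA reads had been removed. The deposited values are raw counts, and HTSeq lists 5 tallies after the genes, of which reads on no feature numbered 27930688 to 41026677 per tumour. These stayed out of library sizes. The strand setting is not given in the sources used here, so the strand the counted reads came from is unknown. Of 53801 identifiers, 53706 matched GENCODE M21, the source of exons and positions.

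Groups came from the labels. The 10 genes and all lists were chosen with earlier results of these data known. CPM used TMM library sizes. The test was the quasi-likelihood test of edgeR 4.0.16 (R 4.3.3, filterByExpr, 7561 genes), with Benjamini-Hochberg adjustment over all genes tested, and SE from its F statistic. Members below the filter were read from the same fit without it. Named beside the members were, from each wider list, the 2 further genes with most reads and any gene called, genes opposite a member or starting within 2 kb, the 3 genes most correlated with Hspb2 and Cryab (Pearson, log2 CPM, prior count 2), and Gm10800 and Gm10801. Others (Ddit3, Dnaja2, 1810014B01Rik) were picked after their values were seen. Tumours of a group differed beyond sampling noise, at a chi-squared statistic per gene between 4.35 and 51.6. This was computed on counts scaled to raw totals, without TMM. The highest value was between CTRL 1 and CTRL 2, where Gm10800 and Gm10801 took 49.0% and 1.31% of counted reads. The biological coefficient of variation in the TMM-scaled fit was 0.398. On simulated data for this comparison (7561 genes, 200 changed), edgeR estimated a median fold of 1.84 for a true 2 and 3.68 for a true 4, and called 4% and 69% of them. The 15 alternatives changed scaling, filter, dispersion or test (DESeq2 1.42.0), added a replicate block, or left out each tumour. The DESeq2 run had no filter on low counts and covered 42423 genes. Exact permutation tests used SciPy 1.17.1.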

Additional observations from a re-analysis of the deposited data

How the results depend on the processing

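No alternative gave a chaperone gene an adjusted p under 0.05, and the direction of Hspb2, Cryab, Hspa5 and Hsp90aa1 held in all 15. With 3 tumours per group, edgeR called 4% of simulated 2-fold changes at an adjusted p under 0.05, over all genes tested and not by read count.

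At the looser thresholds the count of members was 1 (Hspb2) in place of 0 with library size only, without Gm10800 and Gm10801, without the filter, with at least 10 reads in every tumour and in DESeq2, and 0 to 2 when single tumours were left out (Hspa5 and Hsp90aa1 without SEVO 3). In the second and the fourth of these settings Hspb2 was below the filter and was read from the fit over all genes. For Hspb2 the third and the fourth are therefore the same fit, at a log2 fold change of 1.95. Over all genes the count was 266 without the filter and 49 in DESeq2, each of 42423 genes. When single tumours were left out it ran from 13 of 9030 genes to 1449 of 8961. The highest was without CTRL 2 (31 genes at an adjusted p under 0.05, range 0 to 31), followed by 479 of 8383 without SEVO 3. The share of higher genes among the calls was 8 of 79 in the main analysis, 24 of 60 with library size only, 100 of 266 without the filter and 26 of 49 in DESeq2.

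The median of all genes, -0.02, moved to 0.22 with library size only, -0.18 when scaled to uniquely aligned reads, -0.38 without the filter and -0.55 in DESeq2. DESeq2 too was run without the filter, on 42423 genes, so the test and the gene set changed together there. Relative to the median, Hspb2 stayed higher in each setting. The median over the 10 members was -0.45 when scaled to uniquely aligned reads. Log2 fold changes of the other sign were 0.089 (library size only) and 0.16 (no filter, and at least 10 reads) for Hspa8, 0.037 (no filter) for Hsp90ab1, and -0.27 for Dnajb1 and -0.54 for Hspa1b when scaled to uniquely aligned reads. Leaving out single tumours gave -1.60 to 0.28 for Hspa8, -0.81 to 0.021 for Hsp90ab1, -0.051 to 1.98 for Hspa1b and -0.67 to 0.74 for Dnajb1.

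Without the filter, list medians were 0.085 for HSP70 and HSP110, 0.055 for co-chaperones and -0.95 for heat shock factors (-1.17 in DESeq2), and that of small heat shock proteins was -0.11 with at least 10 reads in every tumour. Leaving out single tumours gave -0.052 to 0.73 for small heat shock proteins, -1.13 to 0.30 for HSF1 targets, -1.19 to -0.076 for chaperonins, -1.06 to 0.028 for co-chaperones, -1.01 to -0.18 for the endoplasmic reticulum list, -0.99 to -0.023 for HSP70 and HSP110, -1.09 to -0.20 for HSP90, -0.34 to 0.15 for J proteins and -0.65 to -0.24 for heat shock factors. The cause of these differences was not tested.

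Same-numbered tumours share only a number: their correlations of deviations were -0.40, 0.32 and 0.08, and 1 of 3 numbers correlated best with its own. With the number as a replicate block, 129 genes passed the looser thresholds, 1 had an adjusted p under 0.05 and 0 members passed either, with Hspb2 at 1.35 (unadjusted p = 0.090 in edgeR).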
